A study of Mus musculus with 40 samples.

Results

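The 40 genes described here encode the chromatin regulators of the Polycomb, trithorax and DNA methylation systems. They were chosen by name, with earlier results of these data known. Every one of the 40 was found by its Ensembl gene ID among the 41388 gene IDs of the P14 count table and the 40548 of the P0 count table. They comprise 4 core subunits of Polycomb repressive complex 2 (Ezh1, Ezh2, Eed, Suz12), 3 of its accessory subunits (Jarid2, Mtf2, Phf19), 7 RING and PCGF subunits of Polycomb repressive complex 1 (Ring1, Rnf2, Bmi1, Pcgf1, Pcgf2, Pcgf5, Pcgf6) and 4 of its CBX subunits (Cbx2, Cbx6, Cbx7, Cbx8). The others are 3 genes of the PR-DUB complex (Asxl1, Asxl2, Bap1), 5 of trithorax and H3K4 methylation (Men1, Ash1l, Ash2l, Wdr5, Rbbp5), 4 of H3K36 and H3K79 methylation (Setd2, Nsd1, Nsd2, Dot1l), 3 histone demethylases (Kdm5a, Kdm5b, Kdm6b), 4 of DNA methylation (Dnmt1, Dnmt3a, Dnmt3b, Uhrf1) and 3 of its oxidative removal (Tet1, Tet2, Tet3).

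The study sequenced total RNA from mouse hematopoietic progenitors, which the labels also call MPP (the usual short form of multipotent progenitor), at birth (P0) and at 14 days of age (P14). Flt3-ITD is an internal tandem duplication that leaves the FLT3 receptor tyrosine kinase constitutively active, and NUP98-HOXD13, abbreviated NHD13, is a fusion of a nucleoporin with a homeobox protein. Runx1-HET, in the labels' spelling, stands for heterozygosity at the transcription factor gene Runx1, with the allele not named. At P14 there were 6 groups of 4 libraries: wild type, Flt3-ITD, NHD13, Runx1-HET, and Flt3-ITD together with either NHD13 or Runx1-HET. At P0 there were 3 groups of 4 libraries: wild type, Flt3-ITD alone, and the combination with NHD13. A further P0 group labelled NHD13 is not analysed here, so NHD13 without Flt3-ITD was compared at P14 only. The labels used here give neither the promoter behind NHD13, the number of Flt3-ITD alleles, the strain, nor whether animals were pooled, and p-values therefore measure the spread between libraries as deposited.

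Polycomb repressive complex 2 methylates histone H3 at lysine 27 through EZH1 or EZH2, and its accessory subunits steer it to CpG-rich DNA. Polycomb repressive complex 1 ubiquitinates histone H2A through RING1 or RNF2, its CBX subunits bind the methylated lysine, and PR-DUB removes the ubiquitin. Trithorax-type complexes methylate H3 at lysine 4 and keep genes such as the HOX clusters active, while KDM5 enzymes erase that mark and KDM6B erases H3 lysine 27 methylation. DNMT1 with UHRF1 copies DNA methylation after replication, DNMT3A and DNMT3B place it on unmethylated DNA, and TET enzymes oxidise it. Several of these genes, among them EZH2, ASXL1, DNMT3A and TET2, are recurrently mutated in human myeloid disease.

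Promoter windows from RefSeq (GRCm38.p6; 250 bases before a start site, on the gene's strand) were held for 32 of the 40 genes, in 43 windows. The 5 printed here share no base with an annotated GENCODE exon. They belong to 4 genes that changed in NHD13 progenitors (Dnmt3b, Dnmt3a and Jarid2, higher; Ring1, lower) and to Uhrf1, which carries an E2F-type motif. The Dnmt3a, Jarid2 and Uhrf1 windows precede a RefSeq start but lie inside the GENCODE gene, downstream of its first annotated base. The window of Phf19, which also fell in NHD13, shares 61 bases with exons and is not printed. They run 5′ to 3′, and capitals mark CpG dinucleotides.
Dnmt3b (chr2:153649199-153649448, + strand): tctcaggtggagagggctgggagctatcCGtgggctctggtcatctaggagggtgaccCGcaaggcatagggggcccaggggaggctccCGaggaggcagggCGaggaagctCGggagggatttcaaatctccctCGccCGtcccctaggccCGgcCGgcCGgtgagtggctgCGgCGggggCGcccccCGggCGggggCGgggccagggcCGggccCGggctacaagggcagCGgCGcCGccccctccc
Dnmt3a (chr12:3806730-3806979, + strand): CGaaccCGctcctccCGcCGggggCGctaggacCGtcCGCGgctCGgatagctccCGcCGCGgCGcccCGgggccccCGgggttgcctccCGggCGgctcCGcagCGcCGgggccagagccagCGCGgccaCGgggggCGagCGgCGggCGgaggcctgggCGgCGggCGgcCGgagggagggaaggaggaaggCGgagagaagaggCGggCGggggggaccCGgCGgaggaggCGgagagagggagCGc
Jarid2 (chr13:44730524-44730773, + strand): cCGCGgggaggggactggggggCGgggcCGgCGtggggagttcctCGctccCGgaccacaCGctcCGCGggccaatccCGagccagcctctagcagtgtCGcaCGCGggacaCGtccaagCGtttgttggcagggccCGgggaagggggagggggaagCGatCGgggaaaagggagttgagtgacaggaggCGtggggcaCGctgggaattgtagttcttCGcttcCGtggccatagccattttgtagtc
Ring1 (chr17:34024681-34024930, - strand): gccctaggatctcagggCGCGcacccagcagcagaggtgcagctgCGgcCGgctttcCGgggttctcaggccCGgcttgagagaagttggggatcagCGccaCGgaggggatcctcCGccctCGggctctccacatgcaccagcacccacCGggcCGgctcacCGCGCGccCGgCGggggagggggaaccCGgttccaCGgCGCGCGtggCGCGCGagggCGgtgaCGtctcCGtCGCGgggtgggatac
Uhrf1 (chr17:56304063-56304312, + strand): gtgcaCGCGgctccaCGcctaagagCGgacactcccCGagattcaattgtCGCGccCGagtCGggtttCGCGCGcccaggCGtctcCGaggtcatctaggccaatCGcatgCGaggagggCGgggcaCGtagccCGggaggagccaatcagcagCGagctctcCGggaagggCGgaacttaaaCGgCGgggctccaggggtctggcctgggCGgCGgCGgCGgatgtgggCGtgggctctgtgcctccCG

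The Dnmt3b window holds 21 CpG dinucleotides at 75.2% GC, the Dnmt3a window 38 at 82.4%, the Jarid2 window 23 at 67.2%, the Ring1 window 30 at 73.6% and the Uhrf1 window 30 at 69.6%. Taking the most CpG-rich window of each gene, the 32 genes had a median of 22.5 CpG dinucleotides, against 6 over the 27018 genes with a window. One of 4 E2F-type motifs (TTTGGCGC, TTTCCCGC, TTTCGCGC, TTTGCCGC, searched on both strands) was present for Dnmt1, Uhrf1, Phf19 and Suz12, which is 4 of 32 genes (12.5%) against 2.16% of all genes. The Uhrf1 window above holds TTTCGCGC. The letters CAATAAA, a HOXD13-type motif chosen after the expression values were seen, were in no window of the 32 genes and in those of 4.89% of all genes. These shares were not matched for base composition. The median GC of the most GC-rich window of each gene was 67.8% for the 32 genes and 52.8% for all genes. A match is a string of letters and not a measured binding site.

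Depth ranged from 13749184 to 27289085 counts per library at P14 and from 17309401 to 39309801 at P0. The P0 libraries varied more: the common biological coefficient of variation was 0.301 at P0 and 0.164 at P14, and the median coefficient of variation of the 40 genes was 8.43% to 12.5% in the P14 groups and 14.1% in wild type, 16.97% in Flt3-ITD and 24.5% in Flt3-ITD with NHD13 at P0. Hoxd13, the homeobox part of the fusion, checked the NHD13 labels: it had 342 counts over the 4 NHD13 libraries, 216 in Flt3-ITD with NHD13 at P14 and 420 in that genotype at P0, and at most 3 in any other group. Whole-gene Runx1 counts do not check a lost allele. Runx1 stood at 46.5 to 58.0 CPM (read counts scaled to a library of fixed size) in Runx1-HET, 75.8 to 84.7 in Flt3-ITD with Runx1-HET and 39.3 to 57.4 in wild type. The summed level of 10 progenitor markers was 6443 to 8267 CPM in P14 wild type and 5664 to 6290.5 in NHD13. By Y-linked counts 1 of 4 wild-type libraries at P14 was male, against 4 of 4 Flt3-ITD, 3 of 4 NHD13, 3 of 4 Flt3-ITD with NHD13, 1 of 4 Runx1-HET and 2 of 4 Flt3-ITD with Runx1-HET. At P0, 2 of 4 wild-type, 4 of 4 Flt3-ITD and 2 of 4 Flt3-ITD with NHD13 libraries were male.

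All 40 genes passed the filter on low counts and were tested at both ages. A gene was called changed at an adjusted p (Benjamini-Hochberg, over all genes tested) under 0.05 in edgeR's quasi-likelihood test, and values are CPM on library sizes scaled by edgeR. NHD13 alone gave the most calls: 7 of the 40 genes rose and 3 fell (25%), against 15.9% of all genes tested (7.12% higher and 8.75% lower). The median log2 difference of the 40 genes in NHD13 was 0.0074, beside -0.0082 over all genes. In Flt3-ITD with NHD13, 3 rose and 3 fell (15%, against 22.4% of all genes, 10.2% higher and 12.2% lower). In Flt3-ITD with Runx1-HET, 1 rose and 8 fell (22.5%, against 22.7%, 10.7% higher and 12% lower). Flt3-ITD alone lowered 1 gene (2.5%, against 8.6%, 4.76% lower), and Runx1-HET alone changed none (against 0.778%). At P0 no gene of the set passed in either mutant genotype against wild type. Over the 7 comparisons with wild type, 17 of the 40 genes passed at least once, 6 of them higher only, 10 lower only and 1, Jarid2, in opposite directions in different genotypes. These comparisons share the wild-type libraries of their age. The share of all genes that passed at least once was not counted, so the 17 are not read as a result about the set.

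**Figure D1:**
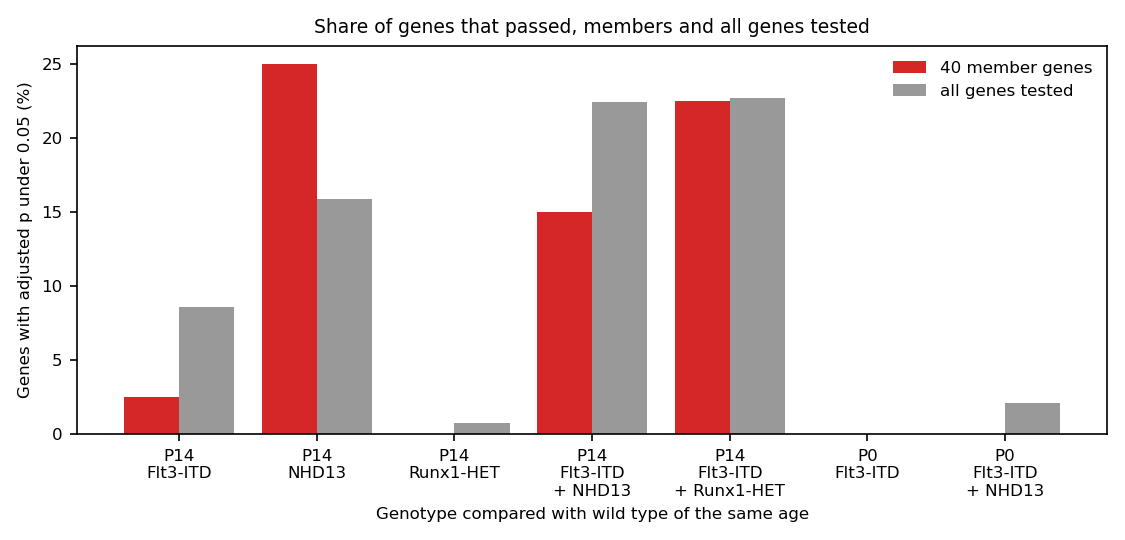
Share of the 40 genes called higher or lower (in percent, adjusted p under 0.05) beside the share of all genes tested, for each comparison. In NHD13 against wild type 25% of the 40 genes passed beside 15.9% of all genes, and in Flt3-ITD with NHD13 15% beside 22.4%.

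**Figure D2:**
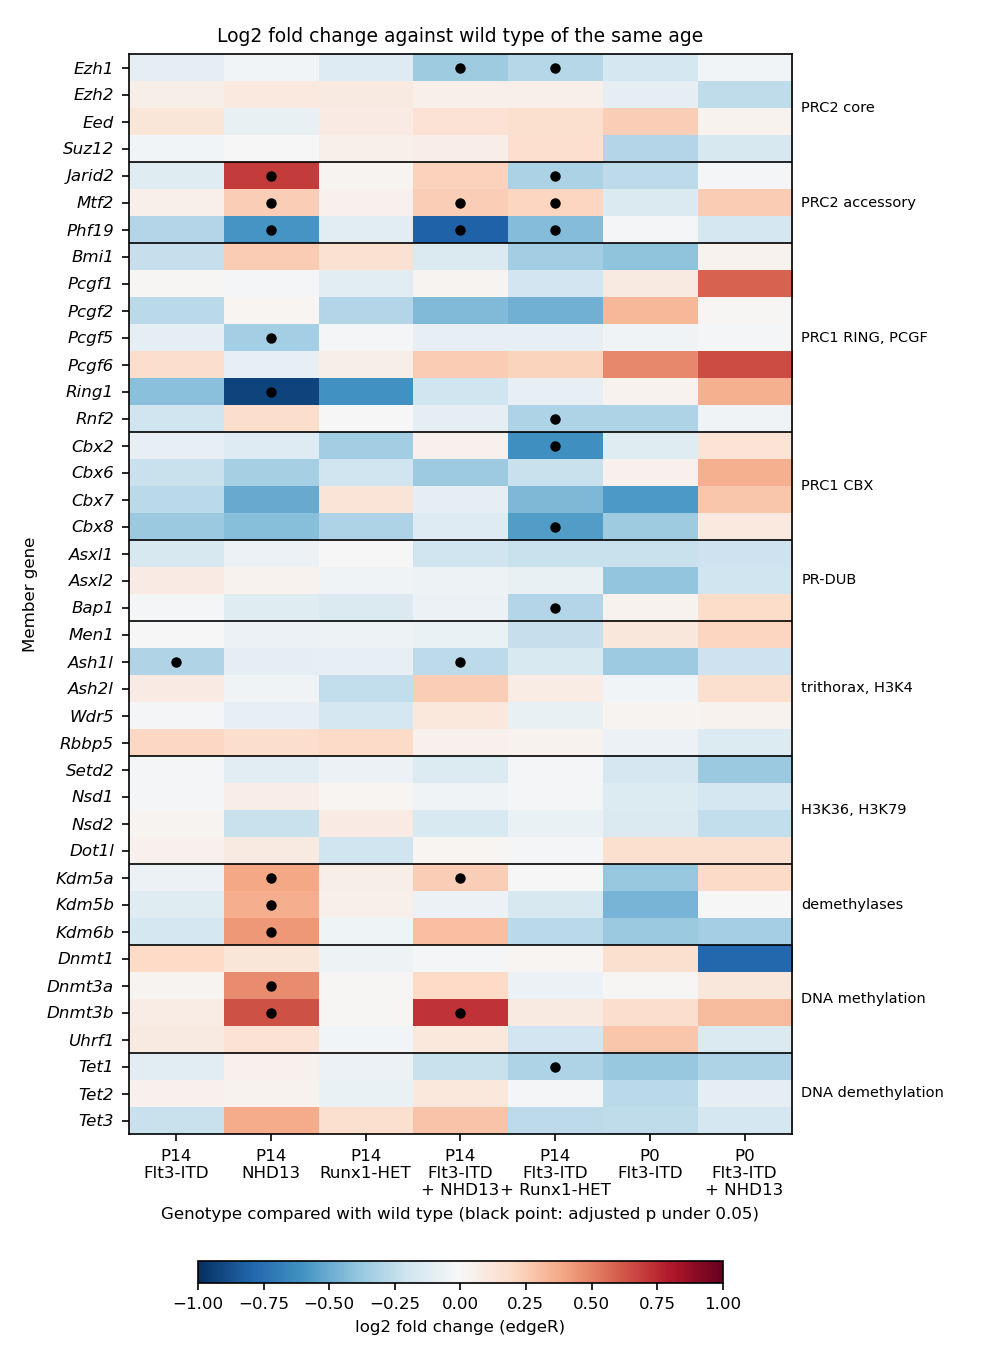
Log2 fold change against wild type of the same age for the 40 genes (rows, by complex) in the 7 comparisons with wild type (columns); marked cells passed at an adjusted p under 0.05. Dnmt3b was positive in all 7 columns and passed in 2 of them, and the Flt3-ITD with Runx1-HET column was negative for 31 of the 40 genes.

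In NHD13 progenitors the DNA methyltransferases that place new methylation were higher. Dnmt3b (ENSMUSG00000027478, chromosome 2, 153649450 to 153687730 in GENCODE M21 on GRCm38) stood at 179, 181, 199 and 187 CPM in the 4 NHD13 libraries and at 111, 125, 122 and 123 in wild type. Every NHD13 library lay above every wild-type library, and the difference was 1.55-fold (log2 0.63 ± 0.071 SE, adjusted p = 9.46e-08). Dnmt3a (ENSMUSG00000020661, chromosome 12, 3806007 to 3914443) stood at 301, 358, 304 and 311 CPM in NHD13 and at 199.5, 237, 243 and 236 in wild type, again without overlap (log2 0.48 ± 0.080, adjusted p = 5.66e-05). Of the maintenance pair, Dnmt1 had a log2 difference of 0.12 ± 0.11 (adjusted p = 0.538) and Uhrf1 one of 0.14 ± 0.11 (adjusted p = 0.445), and neither passed. Tet3, which oxidises methylated cytosine, narrowly missed the threshold at 0.37 ± 0.13 (adjusted p = 0.0586).

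The 3 histone demethylases of the set all rose in NHD13. Kdm5a, which erases H3 lysine 4 methylation, had 409, 357, 359 and 419 CPM in NHD13 and 326, 292, 297 and 266 in wild type, with no overlap (log2 0.39 ± 0.077, adjusted p = 0.000522). Kdm5b, its paralog, had 101, 104, 90.1 and 112 CPM in NHD13 and 72.4, 78.03, 81.1 and 85.00 in wild type, also with no overlap (log2 0.37 ± 0.094, adjusted p = 0.00590). Kdm6b, which erases H3 lysine 27 methylation, had 144, 134, 106 and 132 CPM in NHD13 and 85.6, 107, 91.4 and 97.6 in wild type. The Kdm6b libraries of the groups overlapped although the mean was higher in NHD13 (log2 0.44 ± 0.12, adjusted p = 0.0139), and without NHD13 library 1 the adjusted p was 0.0525.

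All 3 accessory subunits of Polycomb repressive complex 2 changed in NHD13, Jarid2 and Mtf2 upward and Phf19 downward, while none of its 4 core subunits passed. Jarid2 (ENSMUSG00000038518, chromosome 13, 44729474 to 44921643), which recruits the complex to chromatin, had the highest fold of the set: 173, 158, 141 and 142 CPM in NHD13 and 77.04, 106, 106 and 88.8 in wild type, 1.63-fold (log2 0.70 ± 0.10, adjusted p = 6.33e-06). Mtf2, a subunit that binds unmethylated CpG-rich DNA, rose by a smaller amount (log2 0.24 ± 0.078, adjusted p = 0.0295), and was lost without NHD13 library 1 or 4 or wild-type library 1 or 3 (adjusted p up to 0.111), without the filter (0.0767) and with the compared groups alone (0.0596). Phf19 (ENSMUSG00000026873, chromosome 2, 34893757 to 34914026), which reads H3 lysine 36 methylation, fell from 21.3, 21.02, 28.9 and 19.9 CPM in wild type to 12.4, 17.01, 16.5 and 14.5 in NHD13 (log2 -0.59 ± 0.13, adjusted p = 0.00166). For Jarid2 and Phf19 no NHD13 library reached the wild-type range. The core subunits differed by log2 -0.030 (Ezh1), 0.10 (Ezh2), -0.070 (Eed) and -0.0051 (Suz12).

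**Figure D3:**
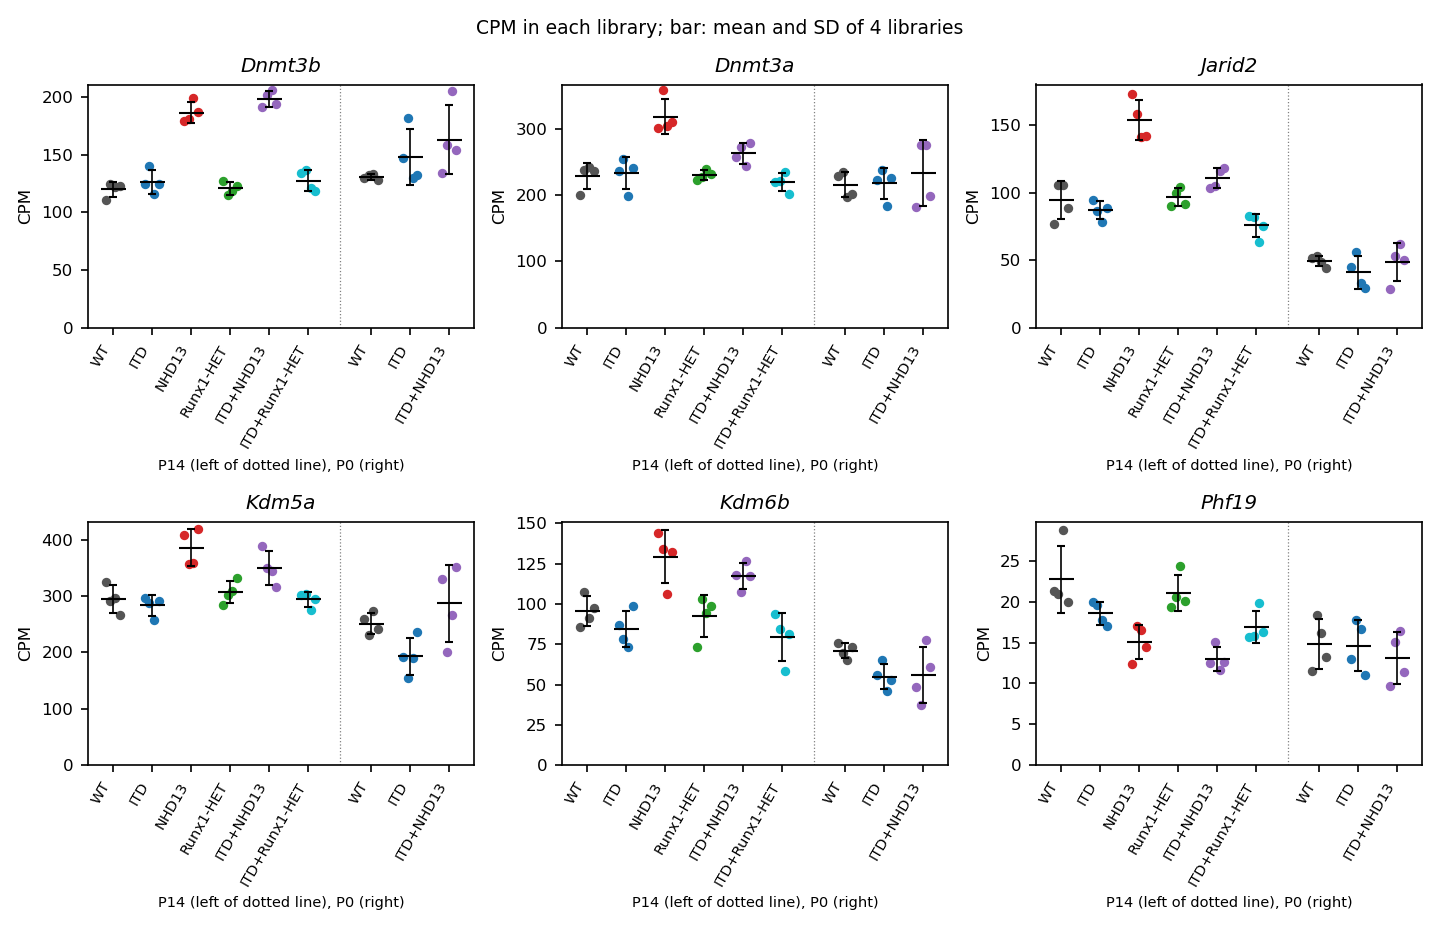
CPM of Dnmt3b, Dnmt3a, Jarid2, Kdm5a, Kdm6b and Phf19 in each of the 36 libraries, by group; each point is 1 library and the bars are the mean and SD of 4 libraries. The 4 NHD13 points lie above all wild-type P14 points for Dnmt3b, Dnmt3a, Jarid2 and Kdm5a and below them for Phf19, and the Kdm6b points overlap.

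Among the subunits of Polycomb repressive complex 1, 2 fell in NHD13 and none rose. Ring1 (ENSMUSG00000024325, chromosome 17, 34020792 to 34024680), a catalytic subunit, had 2.42, 2.30, 2.33 and 4.32 CPM in wild type and 1.48, 0.897, 1.59 and 1.963 in NHD13 (log2 -0.93 ± 0.28, adjusted p = 0.0232). Wild-type library 4 was the highest of these 8 values, and without it the adjusted p was 0.153; leaving out NHD13 library 1 (0.0528) or 2 (0.09999) or adding sex as a term (0.103) also ended the call, as did fitting the compared groups alone (0.0761). Its catalytic paralog Rnf2 was far more abundant, at 51.2 ± 7.33 CPM per kilobase of exon in wild type against 0.876 ± 0.305 for Ring1 (mean ± SD, n = 4), and did not pass (log2 0.17 ± 0.087, adjusted p = 0.207). Pcgf5, a subunit of variant forms of the complex, had 55.1, 57.5, 47.03 and 46.4 CPM in wild type and 45.3, 40.9, 37.5 and 39.2 in NHD13 (log2 -0.34 ± 0.10, adjusted p = 0.0222). It was lost without NHD13 library 3 or 4 or wild-type library 1 or 2 (adjusted p up to 0.0866) and with the compared groups alone (0.0660). None of the 4 CBX genes passed, with log2 differences from -0.51 (Cbx7) to -0.13 (Cbx2). Nor did any of the 3 PR-DUB, 5 trithorax and 4 H3K36 and H3K79 genes.

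Of 65 other genes of the same complexes, 64 were tested at P14, and in NHD13 3 rose and 2 fell (7.81%, below the 15.9% of all genes). Ogt, the glycosyltransferase found with PR-DUB, rose (log2 0.38 ± 0.11), as did Mllt3, a reader within transcription elongation complexes (log2 0.46 ± 0.11), and Mbd1, which binds methylated DNA (log2 0.26 ± 0.085). Phf1, a paralog of Mtf2 and Phf19, fell (log2 -0.95 ± 0.33), and so did Phc1, a Polyhomeotic subunit of Polycomb repressive complex 1 (log2 -0.43 ± 0.11). Of 12 tested HOX and cell cycle inhibitor genes, which Polycomb and trithorax proteins are known to control, 9 rose in NHD13 and none fell. That list includes genes chosen with earlier results of these libraries known, so its direction is not independent evidence.

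Markers of other blood cells moved with the NHD13 genotype. The summed level of 7 erythroid markers was 137 to 298 CPM in NHD13 and 8.18 to 25.4 in wild type, with 5 of 7 higher, and that of 6 megakaryocyte markers was 275 to 996 against 78.1 to 102, with 4 of 5 tested higher. The 6 mast cell and basophil markers summed to 154 to 451 CPM against 21.99 to 25.9, with 4 of 5 tested higher. Eosinophil markers moved the other way, from 216 to 869 CPM in wild type to 4.77 to 7.15, with 3 of 4 lower. The 7 T and NK cell markers were lower too, at 73.5 to 100.3 CPM against 237 to 319.7, with 4 of 4 tested lower; Cd3e was at 0 in all NHD13 libraries and Cd8a in all wild-type libraries. Macrophage and dendritic markers summed to 70.8 to 105 CPM against 104 to 182, with 2 of 7 lower. No erythroid, megakaryocyte, mast cell or eosinophil marker was at 0 in all libraries of either group. Fewer cells of a type and less RNA per cell cannot be told apart in these bulk libraries, and the part of these cells in the NHD13 differences was not tested.

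When Flt3-ITD and NHD13 were combined, Dnmt3b was again higher than in wild type, and 4 of the 7 genes that rose in NHD13 did not pass. Dnmt3b had 192, 202, 206 and 194 CPM in Flt3-ITD with NHD13 and 125, 140.4, 116 and 125 in Flt3-ITD alone, so that the combined genotype was above wild type (log2 0.73 ± 0.071, adjusted p = 6.37e-09) and above Flt3-ITD (log2 0.65 ± 0.071, adjusted p = 7.26e-08). Kdm5a (log2 0.24 ± 0.077, adjusted p = 0.0216, with overlapping libraries) and Mtf2 (log2 0.24 ± 0.078, adjusted p = 0.0218) also rose against wild type. Phf19 fell to 12.5, 15.1, 11.7 and 12.7 CPM (log2 -0.81 ± 0.13, adjusted p = 3.07e-05). Ezh1, the less active methyltransferase of Polycomb repressive complex 2, fell from 82.8, 75.5, 72.6 and 72.9 CPM to 56.4, 60.5, 57.5 and 63.3 (log2 -0.35 ± 0.10, adjusted p = 0.00862). Ash1l, a trithorax-type H3K36 methyltransferase, fell by a smaller amount (log2 -0.27 ± 0.088, adjusted p = 0.0287). Leaving out 1 library ended 3 of these calls: Kdm5a without combined library 1 or wild-type library 4 (adjusted p up to 0.0904), Mtf2 without combined library 1 or 2 or wild-type library 1 or 3 (up to 0.0687), and Ash1l without combined library 2 or 4 or wild-type library 2, 3 or 4 (up to 0.101). Kdm5a was also lost with the compared groups alone (adjusted p = 0.0693), Mtf2 without the filter (0.0614), and Ash1l without the filter (0.0535) or with a sex term (0.0783). The median log2 difference of the 40 genes was -0.022, beside 0.0043 over all genes.

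Dnmt3a, Jarid2, Kdm5b and Kdm6b, which rose in NHD13, did not pass against wild type in the combined genotype. Dnmt3a stood at 258, 272, 243 and 279 CPM (log2 0.20 ± 0.080, adjusted p = 0.0728) and Jarid2 at 104, 105, 116 and 118 CPM (log2 0.23 ± 0.10, adjusted p = 0.109). Kdm5b was at 68.5, 73.3, 80.5 and 81.1 CPM (log2 -0.060 ± 0.094). These values do not show that the genotypes act differently on these genes. The interaction of Flt3-ITD and NHD13 tests whether the combined genotype departs from the sum of the log2 effects. It called 0 of the 40 genes, against 0.535% of all genes, and DESeq2 called 0. At an unadjusted p under 0.05 there were 8 genes of the set. The share of all genes at that unadjusted threshold was not counted, so the 8 are not read as a result. Among those 8, the interaction was -0.35 ± 0.14 for Jarid2 (adjusted p = 0.408), -0.30 ± 0.11 for Dnmt3a (adjusted p = 0.359) and -0.30 ± 0.13 for Kdm5b (adjusted p = 0.476). These genes had passed in NHD13 and not in the combined genotype, so their shared sign is not independent evidence. For Dnmt3b the interaction was 0.014, with a 95% interval of -0.18 to 0.21.

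The combined genotype was also set against Flt3-ITD alone, a comparison added after the values were seen. There the combined genotype raised 5 of the 40 genes and lowered 1 (15%, against 13.5% of all genes, 6.35% higher and 7.18% lower). Besides Dnmt3b these were Jarid2 (log2 0.35 ± 0.10, adjusted p = 0.0183), Kdm5a (0.30 ± 0.077, 0.00707), Kdm6b (0.47 ± 0.12, 0.00867) and Tet3 (0.51 ± 0.14, 0.00927), all higher. The Jarid2 call was lost without Flt3-ITD library 3 or combined library 3 or 4 (adjusted p up to 0.0794), and the Tet3 call without combined library 4 (0.0527). Phf19 was lower (log2 -0.52 ± 0.13, adjusted p = 0.00713). Thus Dnmt3b, Jarid2, Kdm5a and Kdm6b were higher and Phf19 lower on adding NHD13 both to wild type and to Flt3-ITD, in libraries that the comparisons do not share. Erythroid markers summed to 39.5 to 79.6 CPM and megakaryocyte markers to 172 to 440.3 in the combined genotype, with 3 of 7 and 4 of 5 tested higher than in wild type. Progenitor markers summed to 5117 to 5909 CPM in the combined genotype against 6443 to 8267 in wild type (3 of 10 higher and 4 lower), and 7 of 30 cell cycle genes were lower. T and NK cell markers summed to 84.2 to 109 against 237 to 319.7 (3 of 4 tested lower), eosinophil markers to 13.5 to 111 against 216 to 869 (2 of 4 lower) and mast cell markers to 31.5 to 82.9 against 21.99 to 25.9 (2 of 5 tested higher). In Flt3-ITD alone the T and NK cell sum was 293 to 378 and the progenitor sum 6708 to 7329, also above the combined genotype. Its neutrophil sum was 1489.7 to 1915 CPM, against 507 to 1126 in the combined genotype. Macrophage and dendritic markers summed to 209 to 272 in Flt3-ITD, against 146 to 197. Erythroid and megakaryocyte sums went the other way, at 5.47 to 14.5 and 55.99 to 68.5 in Flt3-ITD. Its B cell, eosinophil and mast cell sums overlapped the combined genotype. The part of these cells was not tested. Of the 64 other tested genes of these complexes, Ogt rose against wild type and Phc1, Bcorl1, Kmt2a, Aff1 and Aff4 fell (9.38%, below the 22.4% of all genes).

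Flt3-ITD alone lowered Ash1l (log2 -0.30 ± 0.088, adjusted p = 0.0268), from 94.9, 107, 110.1 and 105 CPM in wild type to 93.7, 75.4, 86.1 and 82.4, and no other gene of the set passed. All 4 Flt3-ITD libraries were male against 1 of 4 in wild type, and with sex as a term Ash1l was not called (adjusted p = 0.152). It was also lost without Flt3-ITD library 2 or 4 or wild-type library 2, 3 or 4 (adjusted p up to 0.122) and with the compared groups alone (0.0867). Neutrophil markers summed to 1489.7 to 1915 CPM in Flt3-ITD against 539 to 803 in wild type (1 of 7 higher), macrophage and dendritic markers to 209 to 272 against 104 to 182 (3 of 7 higher and 1 lower), and mast cell markers to 29.6 to 41.4 against 21.99 to 25.9 (1 of 5 tested higher and 1 lower). Eosinophil markers summed to 3.88 to 61.5 against 216 to 869 (2 of 4 lower) and megakaryocyte markers to 55.99 to 68.5 against 78.1 to 102 (1 of 5 tested lower). The part of these cells in the Ash1l difference was not tested. The exons of Ash1l share bases with the oppositely oriented Dap3, and the sources used here do not say whether counting used strand, so the Ash1l value is uncertain. Runx1-HET alone called 0 genes, with 2 at an unadjusted p under 0.05 and 0 by DESeq2. The median log2 difference of the 40 genes was -0.022 in Flt3-ITD and -0.031 in Runx1-HET, beside -0.011 and -0.0049 over all genes. Among other genes of the complexes, Phc2 and Scml4 fell in Flt3-ITD (3.12% of 64, below the 8.6% of all genes), and Mllt3 rose in Runx1-HET (log2 0.92 ± 0.11, adjusted p = 2.46e-05).

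Flt3-ITD with Runx1-HET gave mostly falls: Cbx2, Cbx8 and Rnf2 of Polycomb repressive complex 1, the deubiquitinase Bap1, Phf19, Ezh1 and Jarid2 of Polycomb repressive complex 2, and Tet1. Cbx2, a CBX subunit that compacts chromatin, had 11.4, 14.3, 12.7 and 21.9 CPM in wild type and 10.7, 8.28, 9.17 and 11.1 in the combined genotype (log2 -0.61 ± 0.20, adjusted p = 0.0283). Cbx8, another CBX subunit, had 7.60, 8.18, 9.43 and 12.6 CPM in wild type and 7.98, 5.76, 6.13 and 5.63 in the combined genotype (log2 -0.56 ± 0.19, adjusted p = 0.0370). The Cbx2 libraries of the groups did not overlap, and the Cbx8 libraries did. Rnf2, the abundant catalytic subunit, had 250.1, 215, 203 and 177 CPM in wild type and 175, 179, 164 and 164 in the combined genotype (log2 -0.31 ± 0.087, adjusted p = 0.0103). Bap1, the catalytic subunit of PR-DUB, also fell (log2 -0.29 ± 0.10, adjusted p = 0.0305). The groups overlapped for both. Against wild type, none of these 4 genes passed in another P14 genotype. Leaving out 1 library ended each call: Cbx2 without combined library 2 or 3 or wild-type library 4 (adjusted p up to 0.186), Cbx8 without combined library 2, 3 or 4 or wild-type library 3 or 4 (up to 0.172), Rnf2 without wild-type library 1 (0.0536), and Bap1 without combined library 1, 2 or 4 or wild-type library 3 or 4 (up to 0.193). An offset for exon length ended the Cbx8 (0.05003), Rnf2 (0.0523) and Bap1 (0.0714) calls, and Cbx8 was also lost without the filter (0.0501) or with a sex term (0.0591).

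Phf19 and Ezh1 fell here as well, without overlap with wild type. Phf19 had 15.7, 15.8, 19.9 and 16.4 CPM (log2 -0.43 ± 0.13, adjusted p = 0.0182) and Ezh1 60.9, 64.4, 68.8 and 55.5 CPM (log2 -0.28 ± 0.10, adjusted p = 0.0369). Jarid2, which rose in NHD13, fell in Flt3-ITD with Runx1-HET, to 82.7, 81.6, 63.8 and 75.1 CPM (log2 -0.32 ± 0.10, adjusted p = 0.0233). Tet1 had 79.9, 133, 112 and 99.6 CPM in wild type and 93.97, 83.9, 75.04 and 90.3 in the combined genotype (log2 -0.31 ± 0.11, adjusted p = 0.0450). Mtf2 rose slightly (log2 0.21 ± 0.078, adjusted p = 0.0469). The median log2 difference over the 40 genes was -0.12, beside -0.022 over all genes. A fit on the wild-type and Flt3-ITD with Runx1-HET libraries alone called 0 of the 40 genes, and leaving out 1 library at a time left 2 to 12. Phf19 was lost without combined library 1, 2 or 4 or wild-type library 3 (adjusted p up to 0.142), Jarid2 without combined library 3 or 4 or wild-type library 2 or 3 (up to 0.111), Ezh1 without combined library 1, 2 or 4 or any 1 wild-type library (up to 0.138), Tet1 without combined library 2, 3 or 4 or wild-type library 2, 3 or 4 (up to 0.237), and Mtf2 without combined library 1, 2 or 4 or wild-type library 1, 2 or 3 (up to 0.113). Tet1 was also lost by DESeq2 (adjusted p = 0.0505), with RLE scaling (0.0566) and with the exon length offset (0.0591). Ezh1 was lost with that offset (0.131), and Mtf2 without the filter (0.150) or with a sex term (0.0541). The interaction of Flt3-ITD and Runx1-HET called 0 genes, against 1.68% of all genes, with 2 at an unadjusted p under 0.05 and 0 by DESeq2.

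Of the 64 other tested genes of the complexes, 7 fell and 2 rose in Flt3-ITD with Runx1-HET (14.1%, below the 22.7% of all genes). The falls were in subunits of the Polycomb repressive complexes: Phc1, Phc2, Scml4, Kdm2b, Bcor and Bcorl1 of complex 1 and Phf1 of complex 2. Dpy30, a shared subunit of the H3K4 methyltransferases, and Mllt3 rose. Eosinophil markers summed to 5.64 to 10.9 CPM against 216 to 869 in wild type, with 3 of 4 lower, and macrophage and dendritic markers to 215 to 364 against 104 to 182, with 2 of 7 higher and 4 lower. B cell markers summed to 103 to 132 CPM against 158 to 201, with 4 of 4 tested lower, and Ms4a1 and Pax5 were at 0 in all 4 libraries of the combined genotype. Neutrophil markers summed to 846 to 3134 CPM against 539 to 803 (1 of 7 higher) and megakaryocyte markers to 54.6 to 68.7 against 78.1 to 102 (1 of 5 tested lower), both without overlap. The part of these cells in the falls was not tested.

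A direct comparison of the combined genotypes, Flt3-ITD with NHD13 over Flt3-ITD with Runx1-HET, was added after the values were seen. It called 8 genes higher and 1 lower (22.5%, against 20.5% of all genes, 10.5% higher and 10% lower). Cbx2 (log2 0.65 ± 0.20), Dnmt3b (0.64 ± 0.071), Kdm6b (0.56 ± 0.12), Tet3 (0.54 ± 0.14) and Jarid2 (0.54 ± 0.10) were the 5 largest of the differences that passed, all higher with NHD13. Dnmt3a (0.26 ± 0.080), Kdm5a (0.25 ± 0.077) and Uhrf1 (0.30 ± 0.11) passed with smaller differences. Phf19 was the gene lower with NHD13 (log2 -0.38 ± 0.13, adjusted p = 0.0414). The comparison keeps Flt3-ITD on both sides and compares no wild-type library. Leaving out 1 library ended 5 of the 9 calls. Among libraries of Flt3-ITD with NHD13 these were library 1, 3 or 4 for Phf19, 2, 3 or 4 for Uhrf1, 2 or 3 for Cbx2, 1 for Kdm5a, and 2 or 4 for Dnmt3a. Among libraries of Flt3-ITD with Runx1-HET they were 2, 3 or 4 for Phf19, 1, 2 or 4 for Uhrf1, 2 for Cbx2, 3 for Kdm5a, and 4 for Dnmt3a. The adjusted p then reached 0.141 for Phf19, 0.159 for Uhrf1, 0.0943 for Cbx2, 0.0864 for Kdm5a and 0.0804 for Dnmt3a. Uhrf1 was also lost by DESeq2 (0.0551), with RLE scaling (0.0568), without the filter (0.0530), with a sex term (0.0739) and with the exon length offset (0.0715). Phf19 was lost without the filter (0.0963), with a sex term (0.0502) and with the compared groups alone (0.0654). Between these genotypes 5 of 5 tested megakaryocyte, 5 of 7 erythroid and 4 of 4 tested B cell markers were higher with NHD13. The eosinophil sum was higher too, at 13.5 to 111 CPM against 5.64 to 10.9. T and NK cell markers summed lower with NHD13, at 84.2 to 109 CPM against 267 to 391. So did macrophage and dendritic markers, at 146 to 197 against 215 to 364, and progenitor markers, at 5117 to 5909 against 6752 to 7733. Neutrophil and mast cell sums overlapped. The part of these cells was not tested.

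At birth the set was measured less precisely, and no gene passed against wild type. In Flt3-ITD at P0, edgeR called 0.0139% of all genes. DESeq2 called 0 of the 40 genes there, and 52 higher and 66 lower over all genes. At an unadjusted p under 0.05 there were 3 of the 40 genes, a threshold not counted over all genes. The log2 differences of Flt3-ITD at P0 fell with exon length over the 40 genes (Spearman's rho -0.413, and -0.265 over 14340 genes, each a description across genes of the same libraries). Those of Flt3-ITD with NHD13 against wild type at P0 fell with length too (rho -0.423, and -0.142 over 14340 genes). In Flt3-ITD with NHD13 at P0, edgeR called 2.08% of all genes against wild type. DESeq2 called 1 of the 40 genes, lower, and 259 higher and 293 lower over all genes. At an unadjusted p under 0.05 there were 3 genes of the set. Dnmt1 (ENSMUSG00000004099, chromosome 9, 20907209 to 20959888), the maintenance methyltransferase, had the lowest log2 difference there. It had 368, 364, 277 and 339 CPM in P0 wild type, 369, 524, 326 and 289 in Flt3-ITD and 121, 190.5, 286 and 186 in Flt3-ITD with NHD13. Against wild type the log2 difference was -0.78 ± 0.23 (adjusted p = 0.113). Against Flt3-ITD it was -0.94 ± 0.23 (adjusted p = 0.0366), the 1 call of the set there (2.5%, against 2.88% of all genes, 1.14% lower). Its 4 libraries lay below every Flt3-ITD library and overlapped wild type. The call was lost without Flt3-ITD library 1, 2 or 3 or Flt3-ITD with NHD13 library 1, 2 or 4 (adjusted p up to 0.0951) and with the compared groups alone (0.0884).

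Dnmt3b, the gene that stood out at P14, differed less at P0. It had 130.0, 132, 134 and 128 CPM in wild type, 147, 182, 129.6 and 132 in Flt3-ITD and 134, 159, 205 and 154 in Flt3-ITD with NHD13, a log2 difference from wild type of 0.32 ± 0.15 (adjusted p = 0.438). A comparison of the ages for adding NHD13 to Flt3-ITD was added after the values were seen. The effect on Dnmt3b was larger at P14 than at P0 by 0.53 ± 0.14 on the log2 scale (adjusted p = 0.0401). Dnmt3b was the 1 gene of the set called in that test (2.5%, against 1.82% of all genes, 0.634% in that direction). With 1 library left out, that call was kept only without P14 Flt3-ITD library 2, P0 Flt3-ITD library 3 or 4, or P0 Flt3-ITD with NHD13 library 3. It was lost without any other 1 library of those groups (adjusted p up to 0.122), without the filter (0.0870) and with the compared groups alone (0.320). It was kept by DESeq2, with RLE scaling, the replicate block, a sex term and the exon length offset. Whether Flt3-ITD alone acted differently at P14 and P0 was tested too, and no gene passed (against 0.194% of all genes), with 0 at an unadjusted p under 0.05 and 0 by DESeq2. The same test for the combined genotype against wild type called none either (against 3.91%), with 7 at an unadjusted p under 0.05. DESeq2 called 1 gene of the set there, and 305 higher and 531 lower over all genes. In edgeR Dnmt1 was nearest, at 0.80 ± 0.24 (adjusted p = 0.0511).

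Uhrf1, the partner that brings DNMT1 to replicated DNA, had 327, 294, 416 and 353 CPM in P0 wild type and 287, 316, 347 and 309 in Flt3-ITD with NHD13 (log2 -0.14 ± 0.13, adjusted p = 0.781). The summed level of 30 cell cycle genes was 6476 to 7547 CPM in Flt3-ITD with NHD13 and 7456 to 8452 in wild type, with 1 of 30 called lower. In P0 Flt3-ITD, the group against which Dnmt1 passed, that sum was 7946 to 9248 CPM, above every library of Flt3-ITD with NHD13, with 3 of 30 called lower. Mast cell and basophil markers varied widely between P0 libraries, summing to 390.4 to 1846 CPM in wild type, 123 to 1006 in Flt3-ITD and 112 to 1521 in Flt3-ITD with NHD13, with none of 6 called. Megakaryocyte markers went the other way, at 126 to 253 CPM in Flt3-ITD with NHD13, 85.0 to 121 in Flt3-ITD and 98.6 to 127 in wild type. The B cell, erythroid and eosinophil sums of Flt3-ITD with NHD13 overlapped both other P0 groups. Its neutrophil, macrophage and dendritic, T and NK cell and progenitor sums lay below both other P0 groups without overlap. Neutrophil markers summed to 341 to 743 CPM against 1099 to 1839.8 in Flt3-ITD and 916 to 1465 in wild type, and macrophage and dendritic markers to 102 to 159.8 against 212 to 739 and 212 to 450.0. T and NK cell markers summed to 82.2 to 115 CPM against 173 to 313 and 197 to 224, and progenitor markers to 4635 to 5319 against 5333 to 6179 and 6112 to 7233. Against Flt3-ITD, 1 of 6 tested neutrophil, 1 of 7 macrophage and dendritic, 3 of 4 tested T and NK cell and 1 of 10 progenitor markers were called lower. The part of these differences in Dnmt1 was not tested. Of the 12 tested HOX and cell cycle inhibitor genes, 7 rose in Flt3-ITD with NHD13 at P0.

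**Figure D4:**
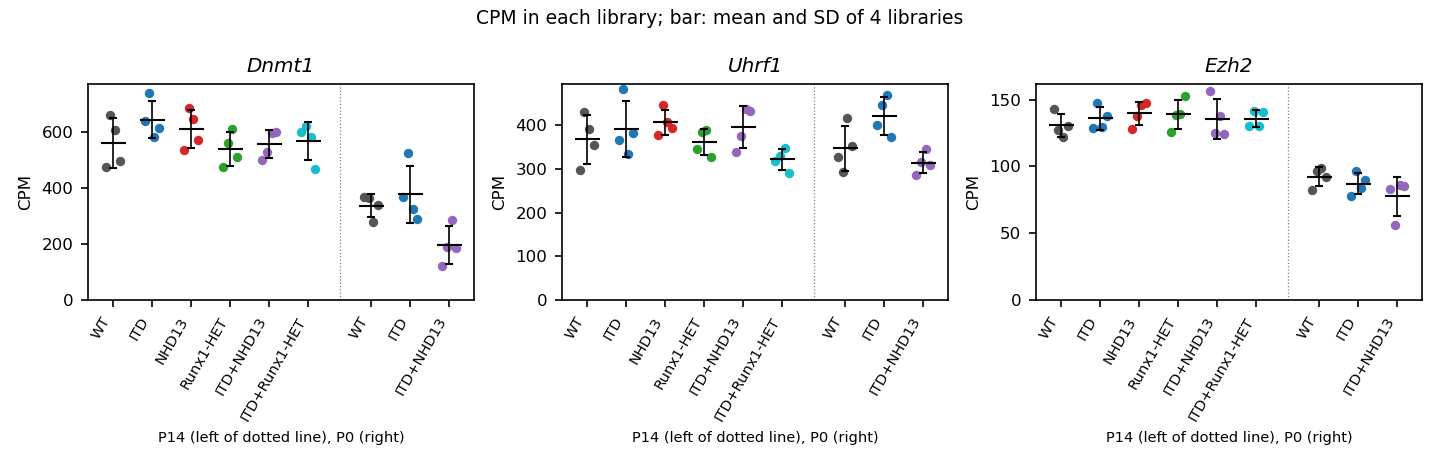
CPM of Dnmt1, Uhrf1 and Ezh2 in each of the 36 libraries, by group; each point is 1 library and the bars are the mean and SD of 4 libraries. The P0 Flt3-ITD with NHD13 points for Dnmt1 spread widely and their mean is the lowest of the 9 groups.

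By level per kilobase of exon, the set was led by the DNA methylation maintenance pair in P14 wild type: Uhrf1 at 86.5 ± 13.1 and Dnmt1 at 75.9 ± 12.04 CPM per kilobase (mean ± SD, n = 4). Rnf2 (51.2 ± 7.33), Eed (36.8 ± 4.41), Men1 (25.9 ± 2.66) and Dnmt3b (23.5 ± 1.23) followed. The intervals of mean ± SD overlapped for Uhrf1 and Dnmt1, so these neighbours were not separated by their spread. Ring1 (0.876 ± 0.305), Pcgf2 (0.640 ± 0.260) and Cbx7 (0.504 ± 0.130) were the lowest. Between paralogs, Dnmt3b was above Dnmt3a (13.8 ± 1.19) per kilobase, although in CPM, without division by exon length, Dnmt3a was higher (229 ± 19.8 against 120.0 ± 6.26). Also per kilobase, Ezh2 (19.6 ± 1.32) was above Ezh1 (10.2 ± 0.637) and Kdm5a (20.8 ± 1.74) above Kdm5b (4.78 ± 0.322).

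Levels in wild type also differed between the ages, and the differences varied with gene length. Of the 40 genes, 29 were lower at P0 than at P14, and 14 stood at 0.65 of their P14 level or less. The lowest ratios were those of Tet2 (0.346), Setd2 (0.362) and Tet1 (0.435), and the highest that of Wdr5 (1.35). Of the 13 genes with more than 10000 bases of exon, 12 were lower at P0, with a median ratio of 0.625. Of the 14 genes with up to 5000 bases, 7 were lower, with a median ratio of 0.981. Spearman's rho between exon length and the log2 ratio was -0.593 over the 40 genes and -0.246 over 14964 genes; genes share the libraries, so this is a description. The counts of each age came in a table of their own, so age and table cannot be told apart.

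**Figure D5:**
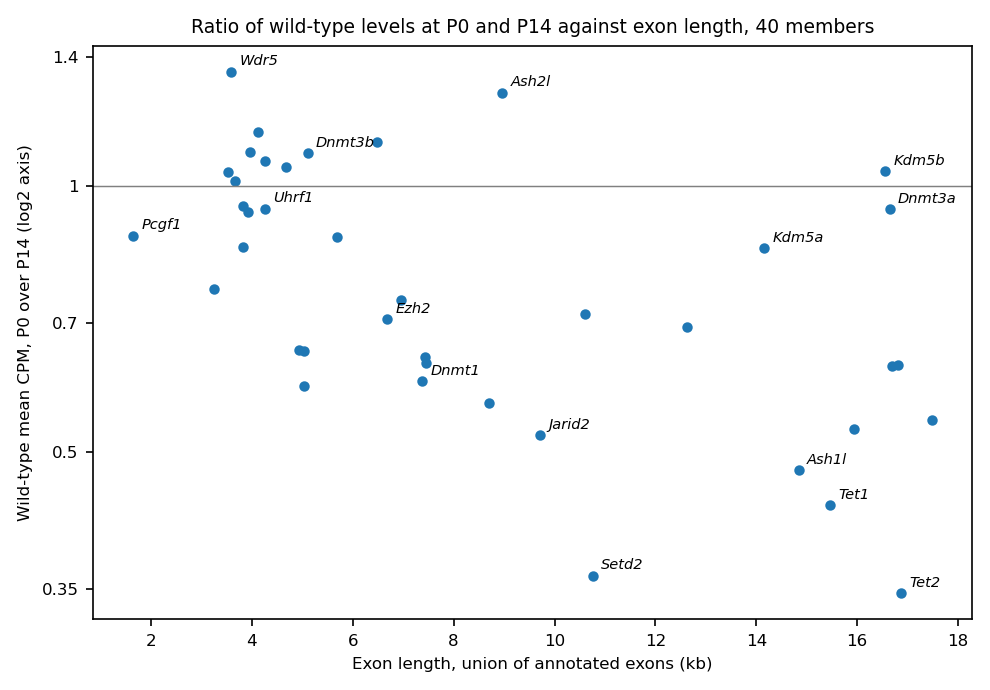
Ratio of the mean CPM in P0 wild type to that in P14 wild type (log axis) against exon length in kilobases for the 40 genes, each a point. Points at long exon length lie mostly below 1, with Tet2 lowest at 0.346, and Wdr5 is highest at 1.35.

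The 4 genes of the set most often mutated in human myeloid disease were described in every group. Dnmt3a rose in NHD13, as given above, and had 237, 255, 198 and 241 CPM in Flt3-ITD, 223, 227, 239.9 and 231 in Runx1-HET and 219, 221, 236 and 202 in Flt3-ITD with Runx1-HET. Ezh2 passed in no comparison: it had 143, 127, 122 and 130.0 CPM in wild type, 128, 138, 146 and 147 in NHD13, and 156, 125, 138 and 124 in Flt3-ITD with NHD13. Its 95% interval against wild type was log2 -0.062 to 0.25 in NHD13, -0.10 to 0.21 in Flt3-ITD with NHD13 and -0.11 to 0.21 in Flt3-ITD with Runx1-HET. Ezh2 ranged over 126 to 152 CPM in the other P14 groups and over 56.1 to 98.6 at P0. The intervals in NHD13 and in Flt3-ITD with NHD13 lay below the differences estimated for Dnmt3b in the same groups.

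Tet2 had 37.9, 30.8, 30.6 and 29.8 CPM in P14 wild type and 33.7, 32.4, 32.9 and 33.7 in NHD13, with a 95% interval of log2 -0.17 to 0.25. It ranged over 22.8 to 37.1 CPM in the other P14 groups and over 6.44 to 18.5 at P0. Asxl1 had 17.4, 23.6, 30.7 and 34.9 CPM in P14 wild type, 28.2, 23.1, 27.3 and 23.3 in NHD13 and 20.3, 21.03, 22.2 and 27.3 in Flt3-ITD with Runx1-HET, where the interval was log2 -0.59 to 0.14. It ranged over 14.4 to 30.4 CPM in the other P14 groups and over 11.05 to 22.3 at P0. A wider interval leaves Asxl1 less well bounded than Ezh2, and its exons share bases with an oppositely oriented gene.

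The P14 groups not given above can be described by their ranges. Dnmt3b ranged over 115 to 137 CPM in Runx1-HET and Flt3-ITD with Runx1-HET. Jarid2 ranged over 78.03 to 104 CPM in Flt3-ITD and Runx1-HET. Kdm5a ranged over 257 to 332 CPM in Flt3-ITD, Runx1-HET and Flt3-ITD with Runx1-HET, and over 316 to 388 in Flt3-ITD with NHD13, where it passed against wild type. Kdm5b ranged over 62.8 to 87.3 CPM in the groups without NHD13 other than wild type. Kdm6b ranged over 58.4 to 103 CPM in those groups and over 108 to 127 in Flt3-ITD with NHD13, where every library lay above the highest wild-type library and the gene did not pass against wild type (log2 0.30 ± 0.12, adjusted p = 0.0874). At P0 no genotype passed against wild type, and the 12 libraries covered 182 to 276 CPM for Dnmt3a and 28.9 to 62.3 for Jarid2. Kdm5a covered 154 to 351 CPM, Kdm5b 49.2 to 107 and Kdm6b 37.05 to 77.6 at P0.

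Of the Polycomb genes that fell in some genotype, Phf19 ranged over 17.1 to 24.3 CPM in Flt3-ITD and Runx1-HET, below or within the wild-type range, and over 9.66 to 18.4 at P0. Ezh1 ranged over 62.3 to 86.03 CPM in the single genotypes at P14 and over 34.1 to 60.2 at P0. Ring1 and Cbx8 were the least abundant of them in CPM, where counting limits precision. Ring1 ranged over 0.990 to 3.16 CPM in the other 4 P14 groups and 1.76 to 3.64 at P0, and Cbx8 over 5.68 to 10.4 and 3.71 to 17.8. Pcgf5 ranged over 42.96 to 57.02 CPM in the other P14 groups and 30.5 to 41.03 at P0. For Rnf2 the other P14 groups covered 172 to 249 CPM and the P0 groups 159 to 290.4. For Cbx2 they covered 9.26 to 19.7 CPM at P14 and 9.58 to 23.3 at P0. Tet1 covered 82.1 to 119 CPM in the other P14 groups and 25.3 to 52.6 at P0, so its P0 libraries all lay below its P14 libraries.

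The other 23 genes passed in no comparison with wild type at either age. They include every core subunit of Polycomb repressive complex 2 except Ezh1, the PCGF genes other than Pcgf5, Cbx6 and Cbx7, Asxl1 and Asxl2, and trithorax and H3K4 genes other than Ash1l. They also include Setd2, Nsd1, Nsd2 and Dot1l, Dnmt1 and Uhrf1 of maintenance methylation, and Tet2 and Tet3. At P14 their log2 differences from wild type ran from -0.51 (Cbx7 in NHD13) to 0.37 (Tet3 in NHD13), and at P0 from -0.78 (Dnmt1) to 0.66 (Pcgf6), both in Flt3-ITD with NHD13. Mtf2, Rnf2, Cbx7, Asxl1, Ash1l, Nsd2 and Kdm5a share exon bases with an oppositely oriented gene whose counts exceed 10% of their own, so their values are uncertain to that extent.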

How the data were processed

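RNA was extracted with a Qiagen kit and amplified with a Clontech SMART-type kit, per the labels' protocols. The authors deposited raw counts per Ensembl gene, 1 table per age; per the submitters' processing notes STAR (3.0.4) and featureCounts (1.4.5, of Subread) were used. The genome build and strand setting are not given in the sources used here. Of 40 labelled samples in 10 groups, 36 in 9 groups had counts; 4 columns that matched no sample were not used, and 276 repeated rows of the P0 table were dropped.

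Names, coordinates and exon lengths came from GENCODE M21 (40254 IDs matched in each table). Each age was fitted with edgeR 4.0.16 in R 4.3.3 (filterByExpr, TMM scaling, robust quasi-likelihood test, all groups of the age), and both ages together for age differences, over 14394 (P14), 14359 (P0) and 14984 (both) genes. Intervals are 95% normal intervals of the estimate. Counts at an unadjusted p under 0.05 were not made over all genes. DESeq2 1.42.0, RLE scaling, no filter, a replicate block, a sex term, fits on the compared groups alone, left-out libraries and, chosen after seeing the data, an exon length offset were alternatives. The P14 comparisons of Flt3-ITD with NHD13 against Flt3-ITD and against Flt3-ITD with Runx1-HET were also added after the values were seen. So was the age difference of adding NHD13 to Flt3-ITD. Replicates differed beyond counting noise (chi-square per degree of freedom 9.11 to 138 over 54 pairs of libraries). Deviations of same-numbered libraries of different groups had a median r of 0.0045 at P14 and 0.10 at P0 (-0.0025 and -0.021 for other numbers). The lowest were -0.14 and -0.18, so not every pair was over 0.1, and the numbers were not taken to pair samples.

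The members and lists were chosen with earlier results of these data known. Genes described by library were the 14 with the largest log2 fold change among those passing against wild type with mean log2 CPM of at least 1, plus Ezh2, Dnmt3a, Tet2 and Asxl1. Their values are given per library in the groups compared and as ranges elsewhere. Ash1l, Dnmt1 and Uhrf1 fell outside this rule, and values by library are given for them too in some groups. Other genes of the complexes are named where they passed.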

Additional observations from a re-analysis of the deposited data

Results flagged for a closer look

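Within groups of 4 libraries, 153 sets of values of the described genes were examined for 1 library far from the other 3 (by Dixon's 95% critical value), and 10 were found, where chance gives about 1 in 20, or 7.65. In P14 wild type, which every P14 comparison uses, Ring1 was 4.32 CPM in library 4 against 2.30 to 2.42 in the others, and Phf19 was 28.9 CPM in library 3 against 19.9 to 21.3. Library 1 of that group was low for Dnmt3a, at 199.5 CPM against 236 to 243, and high for Tet2, at 37.9 CPM against 29.8 to 30.8. Dnmt3a and Phf19 passed in NHD13 without any 1 of these libraries, whereas Ring1 did not pass without library 4. In Flt3-ITD with NHD13 at P14, Asxl1 was 14.4 CPM in library 1 against 25.3 to 26.8. In Flt3-ITD with Runx1-HET, Phf19 was 19.9 CPM in library 3 against 15.7 to 16.4.

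At P0, Ezh2 was 56.1 CPM in library 2 of Flt3-ITD with NHD13 against 82.9 to 86.1 in the others, and Cbx8 was 5.12 CPM in library 2 of wild type against 10.7 to 11.5. In P0 Flt3-ITD, Pcgf5 was 33.1 CPM in library 1 against 35.4 to 35.6, and Ring1 was 3.004 CPM in library 2 against 1.95 to 1.98. The effect of adding NHD13 to Flt3-ITD on Dnmt3b differed between the ages by 0.53 on the log2 scale (edgeR, adjusted p = 0.0401), in a comparison added after the values were seen. As each age came in a count table of its own, age and table cannot be told apart there.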

How the results depend on the processing

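Of 43 pairs of gene and comparison that passed, 17 passed under every alternative, 26 were lost under at least 1 and 0 reversed. Those kept include Dnmt3b, Dnmt3a, Jarid2, Kdm5a, Kdm5b and Phf19 in NHD13 against wild type and Dnmt3b, Phf19 and Ezh1 in Flt3-ITD with NHD13 against wild type. The number of the 40 genes called moved by over 1.5 times under these settings: in Flt3-ITD against wild type (1 as reported), 0 with a sex term and 0 with the compared groups alone; in Flt3-ITD with NHD13 (6), 10 with the exon length offset; in Flt3-ITD with Runx1-HET (9), 4 with that offset and 0 with the compared groups alone. At P0, Flt3-ITD with NHD13 against wild type (0) had 1 by DESeq2, and against Flt3-ITD (1) it had 2 by DESeq2, 2 with the replicate block, 2 with a sex term and 0 with the compared groups alone. The age difference of the Flt3-ITD with NHD13 effect (0) had 1 by DESeq2, 1 with the replicate block, 1 with a sex term and 1 with the exon length offset, and that of adding NHD13 (1) had 0 without the filter and 0 with the compared groups alone. The cause was not tested. The compared groups alone leave fewer libraries to estimate the spread.

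With the replicate block, NHD13 against wild type had 11 calls (10 as reported). At P14 33 of 120 library comparisons matched best within their own number, and at P0 12 of 24, where numbers that carry nothing would give 1 in 4. The P0 share is above that, a hint from the data and not from the design. The block changed no other count of calls beyond those given. Leaving out 1 library at a time gave 0 to 3 calls in Flt3-ITD, 7 to 11 in NHD13, 0 to 0 in Runx1-HET, 4 to 9 in Flt3-ITD with NHD13 and 2 to 12 in Flt3-ITD with Runx1-HET at P14. Flt3-ITD with NHD13 had 4 to 7 against Flt3-ITD and 6 to 8 against Flt3-ITD with Runx1-HET, and both interactions 0 to 0. At P0 the ranges were 0 to 0 in Flt3-ITD, 0 to 1 in Flt3-ITD with NHD13 and 0 to 1 against Flt3-ITD, and for the age differences 0 to 0, 0 to 3 and 0 to 2. Depth limits Ring1, Cbx7 and Pcgf2 most, and the wider spread at P0 limits that age.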
